A study of Mus musculus with 27 samples.

Results

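Smooth muscle cells of the aorta were followed here through 4 single-cell RNA libraries of digested non-stripped aorta, and then through bulk RNA of whole aorta. The members were selected on measured values, namely the genes detected in each cell. A barcode was kept if it held 500 or more genes and 1000 or more unique molecular identifiers (UMIs, each standing for 1 captured RNA molecule), of which at most 15% were mitochondrial. Among these, a member had Myh11 and at least 4 of the 7 contractile genes Acta2, Tagln, Cnn1, Smtn, Lmod1, Mylk and Myl9 detected, at most 1 of the 4 pericyte genes Kcnj8, Abcc9, Higd1b and Cox4i2, and 0 UMIs of the leukocyte gene Ptprc and the endothelial gene Pecam1. The rule took 2029 of 43812 kept cells (4.63%), with 420 and 238 cells in TKO libraries 1 and 2 and 1134 and 237 cells in Cre libraries 1 and 2. The levels of these 14 genes chose the members and are given below as a description.

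All mice of these libraries were labelled C57BL/6 and had received angiotensin II, a peptide that constricts arteries and raises blood pressure, for 28 days. No library without angiotensin II was used, so every value below is from treated aorta. The mice carried a genotype labelled TKO or one labelled Cre, and the labels give neither the allele, the promoter that drives the recombinase nor what TKO stands for. The study was titled for KLF10 and interleukin 9 in CD4+ T cells and for fibrosis around vessels. Beside the 2 TKO and 2 Cre single-cell libraries, 3 TKO and 3 Cre bulk libraries of non-stripped aorta and 2 TKO and 4 Cre bulk libraries of stripped aorta were used. The labels do not say that the libraries of a group came from separate animals, so the p-values measure only the spread between these libraries, which may be technical.

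Vascular smooth muscle cells form the medial layer of the aorta, where they contract when calcium and calmodulin activate myosin light chain kinase and lay down elastic fibres between their layers. Their contractile genes are switched on by serum response factor and its coactivator myocardin, which act through a short DNA element, the CArG box. The same cells can lower their contractile genes and make more matrix, a change described as phenotypic modulation.

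The promoters that hold a CArG box among the genes that chose the members are shown, since this element is the one through which that switch acts. It was searched as CC, 6 bases and GG, called strict where all 6 bases are A or T and loose where at most 1 of them is G or C; the element is its own reverse complement in form, so both strands were read. The window ran from 250 bases before to 50 bases after each start in the RefSeq annotation of GRCm38.p6. Of the 8 contractile genes of the rule, 6 were matched to a promoter, 1 of these held a strict box and 2 a loose or strict one. The 250 bases before the start of Acta2, which encodes smooth muscle actin, lie at chr19:34255374-34255623 on the minus strand and hold boxes that begin 84 and 34 bases before the start. Those of Myl9, the regulatory light chain of smooth muscle myosin, lie at chr2:156775214-156775463 on the plus strand and hold boxes that begin 161 and 99 bases before the start. Capitals mark the boxes.
Acta2: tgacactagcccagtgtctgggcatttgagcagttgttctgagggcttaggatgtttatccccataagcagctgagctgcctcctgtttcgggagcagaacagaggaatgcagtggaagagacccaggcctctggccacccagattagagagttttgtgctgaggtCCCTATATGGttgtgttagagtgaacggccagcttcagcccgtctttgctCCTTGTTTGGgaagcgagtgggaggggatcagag
Myl9: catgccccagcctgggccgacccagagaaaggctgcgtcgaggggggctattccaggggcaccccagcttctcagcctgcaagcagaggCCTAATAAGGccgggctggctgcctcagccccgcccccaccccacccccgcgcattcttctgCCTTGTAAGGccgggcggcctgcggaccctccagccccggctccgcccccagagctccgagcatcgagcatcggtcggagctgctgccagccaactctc

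Over all 27025 genes with a promoter in the table, 1.81% held a strict box and 11.3% a loose or strict one. Among 32 other contractile genes that the rule did not use, 27 were matched, and 6 held a loose or strict box, namely Myl6, Pdlim3, Vcl, Synm, Dstn and Filip1l. A list of 81 genes at least 4-fold higher in the smooth muscle cells than in both other vessel wall classes (the SMC-high list) had 70 matched promoters, of which 15 (21.4%) held a loose or strict box and 5 (7.14%) a strict one. A match says only that the letters are in the window.

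The libraries held between 25922726 and 60910282 UMIs and between 6533 and 15365 kept cells. Cre library 1 stood apart in depth: smooth muscle cells had a median of 1560 and 1451.5 UMIs in TKO libraries 1 and 2 and of 3539 and 1536 UMIs in Cre libraries 1 and 2. Cre library 1 supplied 4401677 of the 5942927 UMIs of all members, so several counts of calls, shares and list medians are also given without it. Over all barcodes listed, kept or not, the 4 libraries shared between 175 and 338 per pair, and no pair shared a barcode of a smooth muscle cell. The smooth muscle cells had median mitochondrial shares of 8.38% and 10.1% in the TKO libraries and 8.23% and 11.1% in the Cre libraries. Cells of other types served as comparison. A fibroblast gate (9739 cells) took cells with at least 3 of 6 fibroblast genes and no Myh11, a pericyte gate (489 cells) took cells with at least 2 of the 4 pericyte genes, and a T cell gate (3007 cells) showed how much free RNA of a vessel wall gene reached cells that should lack it.

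The members carried the defining genes of smooth muscle at high level. Acta2 stood at 8666 and 10139 UMIs per 1000000 UMIs of the class (CPM) in the TKO libraries and at 16258 and 8562 CPM in the Cre libraries. Myh11, the smooth muscle myosin heavy chain, stood at 3644 and 3030.5 CPM in the TKO libraries and at 4481 and 2891 CPM in the Cre libraries. Cre library 1 was highest for both genes. In T cells, Acta2 stood between 137 and 416 CPM and Myh11 between 49.0 and 204 CPM, the level that free RNA or mixed droplets gave. Tagln, an actin-binding protein of smooth muscle, stood between 5858 and 10669 CPM in the members, and Cnn1, which encodes calponin and binds actin, between 739 and 1471 CPM. The other 4 genes of the rule stood lower, from 418 CPM for Lmod1 to 2654 CPM for Myl9 at the extremes of the 4 libraries.

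At the edges of the rule, cells with exactly 4 of the 7 genes numbered 209, those with 5 to 7 numbered 1820 and those with all 7 numbered 957. Just outside, 155 cells met every other part of the rule with exactly 3 of the 7 genes. Cells with exactly 4 held Myh11 at 1905 and 2268 CPM in the TKO libraries and 2199.9 and 1687 CPM in the Cre libraries, and cells with exactly 3 held it at 1036 and 1103 CPM in the TKO libraries and 766 and 1624 CPM in the Cre libraries, with little step in Cre library 2. Dcn, a proteoglycan of fibroblasts, stood at 4263 and 1991 CPM (TKO) and 4917 and 1232 CPM (Cre) in cells with exactly 4 genes, and at 4887 and 4366 CPM (TKO) and 8131 and 1966 CPM (Cre) in cells with exactly 3. A further 662 members had 1 pericyte gene detected, and 89 cells were left out for having more. Another 490 cells were left out for Ptprc, with or without Pecam1, and 187 for Pecam1 alone.

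Markers of other cells were present among the members. At least 3 of the 6 fibroblast gate genes were detected in 328 members (16.2%). They made up 129 of 420 and 52 of 238 members in TKO, and 120 of 1134 and 27 of 237 in Cre. Their share of members was thus higher in both TKO libraries than in both Cre libraries. The summed level of 9 fibroblast markers was 5811 and 4788 CPM in TKO smooth muscle cells and 2478 and 2758 CPM in Cre smooth muscle cells. In T cells of the same libraries the sum was 4376 and 3390.0 CPM for TKO and 1580.1 and 1840.1 CPM for Cre, so it was higher in TKO libraries in both cell types. The sum of 4 haemoglobin genes was 16141 and 14714 CPM in TKO smooth muscle cells and 5675 and 14779 CPM in Cre smooth muscle cells, with Cre library 1 the lowest. T cell markers (6 genes) summed to between 8.86 and 143 CPM and endothelial markers (7 genes) to between 30.9 and 189 CPM. The part that these other transcripts take in the results below was not tested beyond the values given beside them.

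To see what else marked the cells, the smooth muscle UMIs of each library were summed and compared with those of the fibroblast gate and of the pericyte gate by edgeR's quasi-likelihood test, with the library as a block and the genes of the gates left out of the test. The rule chose cells by contractile genes, so the direction of genes that are expressed with them follows in part from that choice, and these comparisons describe the chosen cells. Against fibroblasts, 3416 of 11183 genes differed at a Benjamini-Hochberg adjusted p under 0.05, which is 30.5% of those tested, with 1606 (14.4%) higher and 1810 (16.2%) lower in smooth muscle cells. Against the pericyte gate, 1106 of 5452 genes differed (20.3%), with 574 (10.5%) higher and 532 (9.76%) lower. A total of 508 genes at 50 CPM or more were higher in smooth muscle cells in both comparisons. Without Cre library 1 the counts were 2359 against fibroblasts and 676 against the pericyte gate.

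The contractile apparatus beyond the rule was higher throughout. Of 31 tested genes of this list, 31 were higher than in fibroblasts and 30 of 31 than in the pericyte gate, with median log2 differences of 3.68 and 1.90. Examples are Tpm2, a tropomyosin of the thin filament (5.18 against fibroblasts and 2.68 against the pericyte gate, both log2), Flna, a crosslinker of actin (3.39 and 2.25), Actn1, the alpha-actinin of dense bodies (3.78 and 2.32), and Dstn, which severs actin filaments (2.83 and 2.29). Actn1 stood at 1467 and 1474 CPM in the TKO libraries and at 2121 and 1260.4 CPM in the Cre libraries. Its fibroblast level was 212 and 167 CPM in the TKO libraries and 82.4 and 64.1 CPM in the Cre libraries, and the classes did not overlap in any library.

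The genes that stood furthest above both other classes were not only contractile ones. Sost encodes sclerostin, a secreted inhibitor of Wnt signalling best known from bone. It stood at 1283 and 1396 CPM in TKO smooth muscle cells and at 1462 and 1062 CPM in Cre smooth muscle cells. Fibroblasts held 12.8 to 31.6 CPM of it and T cells 11.5 to 52.1 CPM, so the smooth muscle level lay far above that of free RNA in all 4 libraries. The log2 difference from fibroblasts was 6.03 ± 0.19 (SE, edgeR adjusted p = 4.13e-07) and that from the pericyte gate 3.06 ± 0.33 (edgeR adjusted p = 9.8e-06).

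A matrix ligand and its receptor subunit were high in the same cells. Npnt encodes nephronectin, a matrix protein bound by integrin alpha8 beta1, and stood at 681 and 800.2 CPM in TKO smooth muscle cells and at 1282 and 849 CPM in Cre smooth muscle cells. Itga8, the alpha8 subunit, stood at 862 and 764 CPM in TKO smooth muscle cells and at 1201 and 835 CPM in Cre smooth muscle cells. Fibroblasts held 9.40 to 20.7 CPM of Npnt and 18.2 to 31.7 CPM of Itga8. The log2 differences from fibroblasts were 5.96 ± 0.34 for Npnt and 5.47 ± 0.23 for Itga8, and those from the pericyte gate 3.14 ± 0.32 and 2.87 ± 0.27 (SE, edgeR). All 4 passed the threshold.

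The other genes with the largest smaller difference of the pair included Igfbp2, which binds insulin-like growth factors, at 182 and 248 CPM in the TKO libraries and 462 and 206 CPM in the Cre libraries (log2 5.60 against fibroblasts and 3.51 against the pericyte gate). Myocd, the myocardin coactivator itself, stood at 179.6 and 80.0 CPM in the TKO libraries and 198 and 65.3 CPM in the Cre libraries, against 1.28 to 3.73 CPM in fibroblasts (log2 6.19 ± 0.34). Mylk4, a member of the myosin light chain kinase family, stood between 190.4 and 503 CPM. P2rx1, an ATP-gated cation channel, Htr1b, a serotonin receptor, Ryr2, a calcium release channel of the sarcoplasmic reticulum, and Sorbs2, an adaptor of the actin cytoskeleton, were higher by between 5.42 and 5.94 against fibroblasts on the log2 scale. Ptprz1, a receptor tyrosine phosphatase, Scube3, a secreted protein with EGF-like domains, Itga3, an integrin subunit, Susd5 and Fam81a complete the 15.

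**Figure D1:**
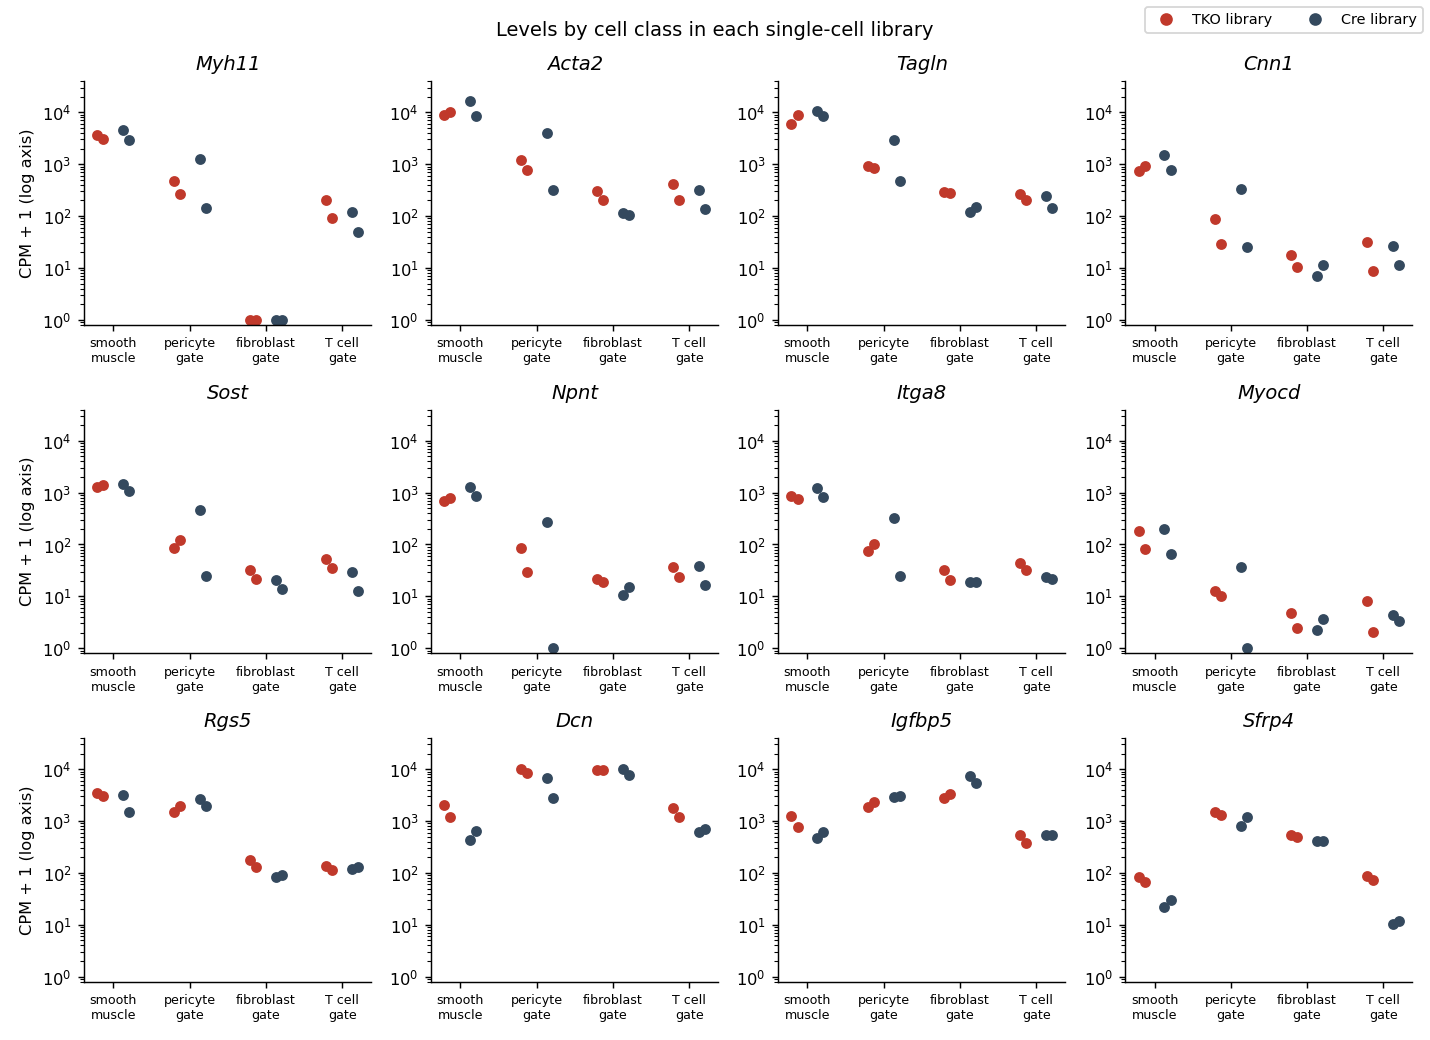
Levels of 12 genes in smooth muscle cells, the pericyte gate, the fibroblast gate and the T cell gate, in CPM plus 1 on a log axis, with 1 point per library and TKO (red) left of Cre (dark). Sost, Npnt, Itga8 and Myocd lie above the other classes in all 4 libraries of smooth muscle cells, and Rgs5 is high in both smooth muscle cells and the pericyte gate.

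The pericyte gate was mixed. Of its 489 cells, 361 (73.8%) had at least 3 of the fibroblast gate genes, so its name describes the gate and not a pure cell type. The genes furthest below it in smooth muscle cells were secreted or matrix-related ones, such as Sfrp4, a secreted Wnt inhibitor (log2 -4.65), Dio2, which activates thyroid hormone (-4.22), Cfb, complement factor B (-4.13), Svep1, a large matrix protein (-4.00), Mmp3, a matrix protease (-3.93), Serpina3n, a protease inhibitor (-3.84), Cygb, cytoglobin (-3.80), and Tspan11, a tetraspanin (-4.42). With those 361 cells left out, a choice made after the data were seen, 208 of 4751 genes differed, 84 higher and 124 lower, and 157 of the 208 were among the 1106. Sost (1.86), Npnt (1.98), Itga8 (1.75), Igfbp2 (2.47), Mylk4 (1.79), Ptprz1 (1.57) and Susd5 (1.54) were still called higher on the log2 scale. Myocd (1.41, edgeR adjusted p = 0.0527), P2rx1, Htr1b, Ryr2, Sorbs2, Scube3, Itga3 and Fam81a were not called there. Sfrp4 stood at 2.08 (edgeR adjusted p = 0.136) there, and Cygb was called lower at -2.94.

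Rgs5, a regulator of G protein signalling often used as a pericyte marker, was abundant in the members. It stood at 3546 and 2997 CPM in TKO smooth muscle cells and at 3140.4 and 1507 CPM in Cre smooth muscle cells. Pericyte gate cells held 1484 and 1931 CPM in the TKO libraries and 2678 and 1919 CPM in the Cre libraries, so the 2 classes overlapped. T cells held 113 to 137 CPM. The log2 difference from the pericyte gate was 0.56 ± 0.18 (SE, edgeR adjusted p = 0.0435), and it became -0.80 (edgeR adjusted p = 0.0342) without the pericyte gate cells that carried fibroblast genes. Its order between the 2 classes therefore depended on which cells the gate held.

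Genes of calcium handling and of vasoactive signalling followed the contractile list in part. Of the ion channel and calcium genes, 17 of 21 were higher and 2 lower than in fibroblasts, and 11 of 16 were higher and 1 lower than in the pericyte gate. Of all genes tested, 14.4% were higher and 16.2% lower than in fibroblasts, and 10.5% higher and 9.76% lower than in the pericyte gate. Kcnmb1, the beta subunit that raises the calcium sensitivity of the BK potassium channel, stood at 182 and 196 CPM in the TKO libraries and 318 and 179 CPM in the Cre libraries, with a log2 difference of 6.55 from fibroblasts. Pln, phospholamban, which restrains the calcium pump of the sarcoplasmic reticulum, was higher by 4.98 (log2). Of the vasoactive list, 13 of 24 were higher and 2 lower than in fibroblasts. Pde3a, a cyclic nucleotide phosphodiesterase, was higher by 2.95 and Ramp1, part of the receptor for calcitonin gene-related peptide, by 3.52 (log2, both called). Agtr1a, the main receptor for angiotensin II in mice, was scarce in the members, at 6.75 and 5.16 CPM in the TKO libraries and 2.73 and 0 CPM in the Cre libraries, and lower than in fibroblasts by a log2 difference of -1.83.

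The Notch and regulator lists were mixed. Notch3, the main Notch receptor of arterial smooth muscle, was higher than in fibroblasts (log2 2.74 ± 0.16, SE, called by edgeR) and did not pass against the pericyte gate (-0.56, edgeR adjusted p = 0.195). Hey2 and Heyl, Notch target repressors, were higher than in fibroblasts by 3.15 and 2.98 on the log2 scale. Of 11 Notch genes tested against fibroblasts, 6 were higher and 1 lower. Of 25 transcriptional regulators, 8 were higher and 8 lower than in fibroblasts, where 14.4% of all genes were higher and 16.2% lower. Among the Hox genes, 3 of 21 were higher than in fibroblasts and 4 lower, close to the 14.4% and 16.2% of all genes, with Hoxa10 and Hoxc10, position genes of the caudal body, higher by 2.05 and 1.81 (log2).

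In the matrix, the members were set apart by elastin, by a part of the basement membrane and by few interstitial genes. Eln, which encodes elastin, stood at 2733 and 2594 CPM in TKO smooth muscle cells and at 3311 and 2122 CPM in Cre smooth muscle cells, with log2 differences of 2.34 ± 0.15 from fibroblasts and 1.80 ± 0.35 from the pericyte gate (SE, edgeR, both called). Of the elastic fibre list, 6 of 18 were higher and 8 lower than in fibroblasts; Fbln1, a fibulin of elastic fibres, was lower by a log2 difference of -3.34. Col18a1, whose collagen lies in basement membranes, stood between 699.5 and 1246 CPM and was higher by 4.59 ± 0.15. Of the basement membrane list, 14 of 23 were higher and 7 lower, among them Bcam, a laminin receptor (4.07), and Lama2, a laminin chain (-2.42). Of the interstitial collagen and proteoglycan list, 19 of 31 were lower and 7 higher than in fibroblasts. For all these lists, the share over all genes tested against fibroblasts was 14.4% higher and 16.2% lower.

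Immune genes were low relative to both classes. None of the 21 inflammatory genes tested was called higher than in fibroblasts and 16 were lower, and 19 of 23 interferon genes were lower. Il33, an alarmin, was lower by a log2 difference of -3.93, and Cxcl12, a chemokine, by -1.46. Of the interleukin 9 and common cytokine receptor list, 1 of 24 was higher and 13 were lower. Il9 and Il9r, interleukin 9 and its receptor, had 0 of the 5942927 UMIs of the members, which allows a level of up to 0.505 CPM and was not detectable below that; such limits cover counting error only. Klf10, a transcription factor induced by TGF-beta, was lower than in fibroblasts (log2 -1.33 ± 0.29, SE, edgeR adjusted p = 0.00601). Immediate early genes, which dissociation can induce, were lower for 14 of 25, and 8 of 40 oxidative phosphorylation genes were higher with 0 lower. Over all genes tested against fibroblasts, 14.4% were higher and 16.2% lower, so the 8 of 40 lay near the share of all genes.

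Within the members, the genes that varied most between cells at equal depth were found after drawing 1000 UMIs from each cell. A total of 24 genes ranked among the 50 most variable in all 4 libraries. The 4 haemoglobin genes Hbb-bs, Hba-a1, Hba-a2 and Hbb-bt led, followed by Mgp, Gm42418, Rgs5, Malat1, Igfbp5, Eln, Fn1, Fabp4, Dcn, Lyz2 and Thbs1. The haemoglobins were higher in T cells than in the members (Hbb-bs 2855 to 8316 CPM in smooth muscle cells and 8156 to 14635 CPM in T cells), and so was Lyz2, a macrophage lysozyme. Of the rest, Rgs5 was detected in 48.8% and 52.9% of TKO cells and 45.1% and 35.0% of Cre cells at 1000 UMIs, and Sost in 46.4% and 50.4% of TKO cells and 58.5% and 46.4% of Cre cells. Acta2 was detected in 96.9% to 99.1% of cells. Igfbp5, which binds insulin-like growth factors, and Thbs1, the matrix protein thrombospondin 1, were uneven. Igfbp5 stood at 1226 and 761 CPM in TKO and 462 and 612 CPM in Cre smooth muscle cells. In T cells it stood at 537 and 374 CPM in TKO and 528 and 532 CPM in Cre, so the Cre levels were alike. Thbs1 stood at 398 to 740 CPM in smooth muscle cells and 31.5 to 136 CPM in T cells. Dcn and Fabp4 were close to or below their T cell levels in each library. For Igfbp5 the tenth of cells with most of it held 71.5% and 73.9% of its UMIs in the TKO libraries and 93.0% and 80.4% in the Cre libraries. For Thbs1 it held 70.7% and 87.1% in the TKO libraries and 93.3% and 91.1% in the Cre libraries, and for Acta2 19.3% to 24.0%.

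Cells were then split by 0, 1 to 2 or 3 or more UMIs of Rgs5, Sost or Eln among 1000, a choice made after the variable genes were seen, and the values are a description. Fn1, the fibronectin gene, was highest where Rgs5 was highest. It averaged 6.58 and 5.84 UMIs in the TKO libraries and 7.47 and 6.36 UMIs in the Cre libraries in cells with 3 or more UMIs of Rgs5, against 1.87 and 1.44 UMIs (TKO) and 2.78 and 2.55 UMIs (Cre) in cells with none. Pearson's r between Rgs5 and Fn1 over cells was 0.42 and 0.56 in the TKO libraries (n = 420 and 238 cells) and 0.35 and 0.33 in the Cre libraries (n = 1134 and 237 cells); the cells of a library share its free RNA. Tagln was also higher in Rgs5-rich cells in all 4 libraries, at 7.83 and 12.5 UMIs against 5.24 and 7.79 UMIs in the TKO libraries and 11.6 and 10.9 UMIs against 9.97 and 9.23 UMIs in the Cre libraries. Sost showed no common order across the Rgs5 classes.

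The Sost split showed another pattern. Acta2 rose with Sost, with Pearson's r over cells of 0.21 and 0.21 in the TKO libraries and 0.17 and 0.15 in the Cre libraries. For Myh11, r with Sost was 0.0037 and 0.19 in the TKO libraries and -0.051 and -0.026 in the Cre libraries. Whether the genes below follow Sost apart from Acta2 was not tested. Npnt averaged 1.22 and 1.20 UMIs in TKO cells and 1.67 and 1.45 UMIs in Cre cells with 3 or more UMIs of Sost, against 0.396 and 0.475 UMIs (TKO) and 0.945 and 0.685 UMIs (Cre) in cells with none. Itga8 ran the same way, with 1.11 and 1.00 UMIs (TKO) and 1.36 and 1.27 UMIs (Cre) against 0.591 and 0.517 UMIs (TKO) and 0.909 and 0.646 UMIs (Cre). Thbs1, Igfbp5 and Notch3 ran the opposite way. Of these, Igfbp5 stood near its T cell level in the Cre libraries. Thbs1 averaged 0.111 and 0.107 UMIs (TKO) and 0.170 and 0.125 UMIs (Cre) in Sost-rich cells, against 0.947 and 1.03 UMIs (TKO) and 0.616 and 0.528 UMIs (Cre) in cells with none. Igfbp5 averaged 0.697 and 0.339 UMIs (TKO) and 0.219 and 0.075 UMIs (Cre) against 1.81 and 1.23 UMIs (TKO) and 0.975 and 1.05 UMIs (Cre). Notch3 averaged 0.0202 and 0.0179 UMIs (TKO) and 0.0283 and 0.0250 UMIs (Cre) against 0.209 and 0.237 UMIs (TKO) and 0.161 and 0.0472 UMIs (Cre). Between the classes with 0 and with 3 or more UMIs of Sost, the direction was the same in each of the 4 libraries for each of these genes. The class with 1 to 2 UMIs did not always lie between them, as for Igfbp5 in TKO library 1, at 0.458 UMIs.

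Elastin-rich cells held more Mgp, an inhibitor of calcification, and more Ccn2, a matricellular growth factor. Mgp averaged 10.4 and 9.56 UMIs (TKO) and 10.6 and 22.0 UMIs (Cre) in cells with 3 or more UMIs of Eln, against 2.75 and 4.00 UMIs (TKO) and 3.24 and 6.44 UMIs (Cre) in cells with none. Ccn2 averaged 3.01 and 3.32 UMIs (TKO) and 3.29 and 2.39 UMIs (Cre) against 1.00 and 1.07 UMIs (TKO) and 1.31 and 0.966 UMIs (Cre). Igfbp5 was lower in elastin-rich cells of every library, at 0.313 and 0.220 UMIs (TKO) and 0.130 and 0.224 UMIs (Cre) against 2.33 and 1.18 UMIs (TKO) and 1.77 and 0.720 UMIs (Cre). Over all members of the Cre libraries, Igfbp5 stood near its T cell level.

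**Figure D2:**
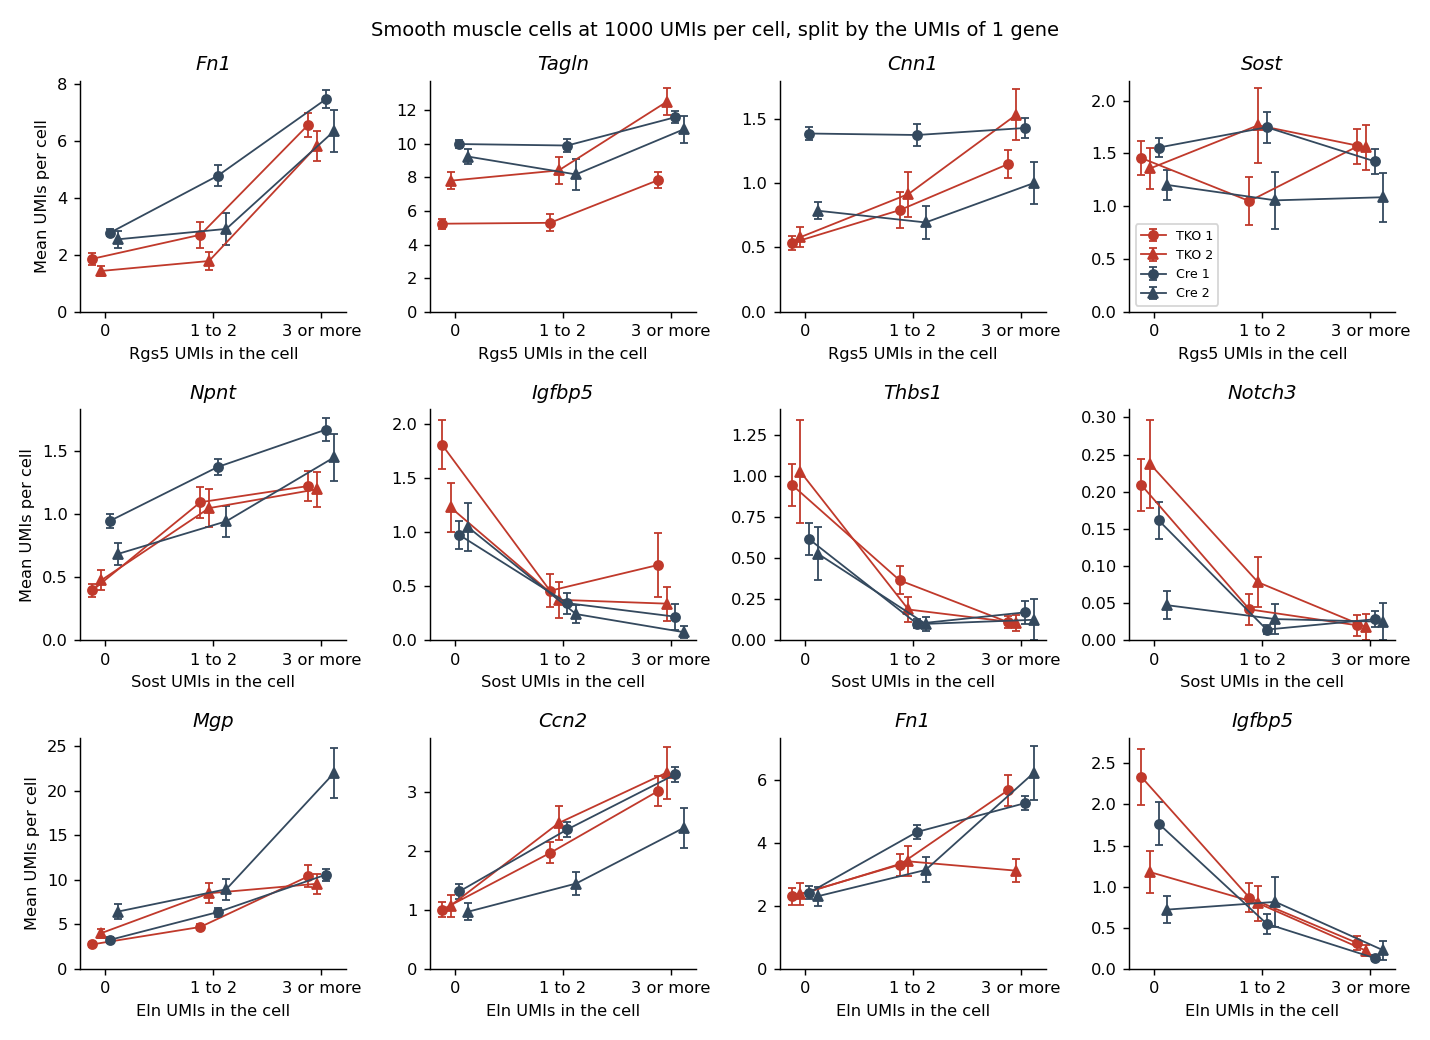
Mean UMIs per smooth muscle cell (± SE over cells, after drawing 1000 UMIs from each cell) for cells with 0, 1 to 2 or 3 or more UMIs of Rgs5 (top), Sost (middle) or Eln (bottom), with 1 line per library. In all 4 libraries, cells with 3 or more UMIs hold more than cells with none of Fn1 (Rgs5 split), Npnt (Sost split), and Mgp and Ccn2 (Eln split), and less of Igfbp5, Thbs1 and Notch3 (Sost split).

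The first comparison of genotypes concerned how many of the kept cells were smooth muscle cells. The share was 2.73% (95% Clopper-Pearson interval 2.48 to 3.00) and 3.21% (2.82 to 3.63) in the TKO libraries and 7.83% (7.39 to 8.28) and 3.63% (3.19 to 4.11) in the Cre libraries. Both TKO libraries lay below both Cre libraries, and Cre library 1 lay far above the other 3. Among cells with at least 2000 UMIs the shares were 2.51% and 3.37% in TKO and 9.47% and 2.77% in Cre, so the groups overlapped there. The means were 2.97% ± 0.334 in TKO and 5.73% ± 2.97 in Cre (SD, n = 2 each), a difference of -2.76 percentage points, with an exact two-sided permutation p of 0.3333, the smallest that 2 against 2 libraries allow. Without Cre library 1 the difference was -0.658 points. When each cell was first thinned to 1000 UMIs and the rule applied again, the shares were 2.58% and 2.92% in TKO and 8.21% and 3.32% in Cre. Among cells without Ptprc the shares were 5.04% and 5.38% in TKO and 13.8% and 6.95% in Cre. The share of cells also depends on how the tissue was digested, which was not tested.

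**Figure D3:**
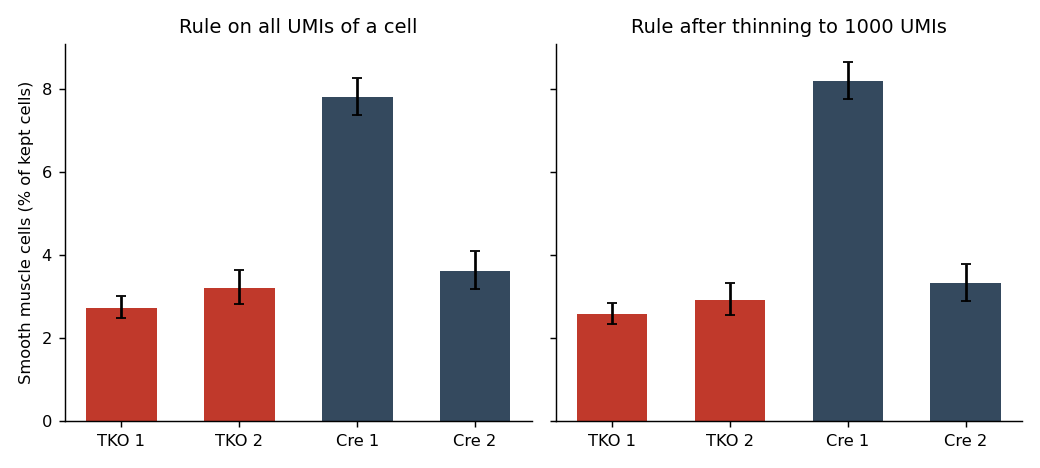
Share of kept cells that met the smooth muscle rule in each of the 2 TKO and 2 Cre libraries, on all UMIs (left) and after thinning every cell to 1000 UMIs (right), in percent with 95% Clopper-Pearson intervals for counting error. Cre library 1 stands at 7.83% and the other 3 libraries between 2.73% and 3.63% in the left panel.

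The second comparison asked which genes differed inside the smooth muscle cells. In edgeR's quasi-likelihood test on the UMIs summed per library, 0 of 6877 genes passed an adjusted p of 0.05 (0% called). At an unadjusted p under 0.05 there were 264 genes (3.84%), 172 (2.5%) higher and 92 (1.34%) lower in TKO, and DESeq2 called 4 (Ecrg4, Angptl1, Lum and Ccl8, the last a chemokine gene named after its value was seen). Klf10, named in the study's title, stood at 21.6 and 41.3 CPM in TKO smooth muscle cells and at 13.2 and 29.0 CPM in Cre smooth muscle cells. The groups overlapped, and the log2 difference was 0.67 ± 0.54 (SE, edgeR adjusted p = 1). The T cells of the same libraries held 42.7 and 33.8 CPM in TKO and 39.6 and 30.9 CPM in Cre, so neither class held less Klf10 RNA in both TKO libraries. Whether the counted reads cover a part of the gene that the TKO genotype changes is not given by the labels.

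The contractile genes that chose the cells are given as a description, since their levels inside the members are set in part by the rule. Their log2 differences between TKO and Cre had a median of -0.43, with Acta2 at -0.47 ± 0.45, Myh11 at -0.22 ± 0.39, Tagln at -0.44 ± 0.42 and Cnn1 at -0.51 ± 0.40 (SE, edgeR). Without Cre library 1 their median was 0.03 and 5 of 8 were positive. For the other contractile genes the median was -0.28; 8 of 31 were positive, against 51% of all genes, and 0 called. Without Cre library 1 it turned to 0.17, with 21 of 31 positive.

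Since fewer than 5 genes passed in either direction, the 5 with the smallest p in each direction are given, none of which passed. The 5 on the higher side encode secreted or matrix proteins. Ecrg4, the precursor of a secreted peptide, stood at 58.1 and 62.0 CPM in TKO smooth muscle cells and at 1.82 and 4.84 CPM in Cre smooth muscle cells (log2 4.62 ± 0.49, SE, edgeR adjusted p = 0.0736). The same gene stood at 239 and 408 CPM in TKO fibroblasts and 11.1 and 62.0 CPM in Cre fibroblasts, and at 52.5 and 13.1 CPM in TKO T cells and 5.32 and 17.6 CPM in Cre T cells. Angptl1, a secreted angiopoietin-like protein, stood at 41.9 and 51.6 CPM in TKO smooth muscle cells and at 1.59 and 2.42 CPM in Cre smooth muscle cells (4.63 ± 0.54, edgeR adjusted p = 0.0736), with T cells at 47.6 and 38.2 CPM in TKO and 9.64 and 12.1 CPM in Cre. Both genes were thus about as high in TKO T cells as in TKO smooth muscle cells in at least 1 library. Thbs4, thrombospondin 4, stood at 58.1 and 36.1 CPM in TKO and 4.09 and 4.84 CPM in Cre (3.41 ± 0.46, edgeR adjusted p = 0.14), with T cells at 41.1 and 29.4 CPM in TKO and 2.33 and 27.2 CPM in Cre. Lum, the small proteoglycan lumican and a fibroblast gate gene, stood at 398 and 235 CPM in TKO and 53.2 and 67.7 CPM in Cre (2.36 ± 0.34, edgeR adjusted p = 0.143), with T cells at 303 and 193 CPM in TKO and 58.5 and 80.5 CPM in Cre.

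Cpxm2, a secreted carboxypeptidase-like protein, stood above its T cell level in every library. It held 89.1 and 72.3 CPM in TKO smooth muscle cells and 17.3 and 14.5 CPM in Cre smooth muscle cells, with T cells at 29.7 and 21.8 CPM in TKO and 4.32 and 3.03 CPM in Cre (log2 2.22 ± 0.31, SE, edgeR adjusted p = 0.143). The smooth muscle groups did not overlap for any of the 5 genes. Over all tested genes, 1416 (20.6%) had both TKO libraries above both Cre libraries.

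On the lower side, where 788 of all genes (11.5%) had both TKO libraries below both Cre libraries, Uchl1 and Col15a1 were well above the T cell level. Uchl1, a deubiquitinase best known from neurons, stood at 51.3 and 54.2 CPM in TKO smooth muscle cells and 168 and 150.0 CPM in Cre smooth muscle cells, with T cells between 7.32 and 9.81 CPM (log2 -1.68 ± 0.27, SE, edgeR adjusted p = 0.18). Col15a1, a collagen next to basement membranes, stood at 176 and 209 CPM in TKO and 607 and 426 CPM in Cre, with T cells between 13.9 and 47.6 CPM (-1.51 ± 0.33, edgeR adjusted p = 0.775). The other 3 are genes of other cells. Mcpt4, a protease of mast cells, stood at 2.70 and 5.16 CPM in TKO and 49.8 and 31.4 CPM in Cre (-3.62 ± 0.55, edgeR adjusted p = 0.17). Cpa3, another mast cell protease, stood at 4.05 and 2.58 CPM in TKO and 27 and 21.8 CPM in Cre (-2.89 ± 0.64, edgeR adjusted p = 0.775). Ctrb1, a pancreatic digestive enzyme, had 0 of 1127890 UMIs in TKO smooth muscle cells, which allows up to 2.66 CPM over the group, and 834 UMIs in Cre smooth muscle cells. These were 188 CPM in Cre library 1 and 19.4 CPM in Cre library 2. Over the group it was at least 65.1-fold lower in TKO, and at least 7.28-fold lower without Cre library 1. Its T cell level was 0 and 0 CPM in TKO and 394 and 22.4 CPM in Cre, and it did not pass (edgeR adjusted p = 0.775). With no filter on low counts all 10 genes passed in edgeR, among 68 called, and Ecrg4, Angptl1 and Lum were called by DESeq2, so these calls depended on the filter and the test.

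Among the gene lists of smooth muscle biology, 0 members were called in any list. The median of the Notch list was 0.46 (log2), and 7 of 9 were positive, against 0.01 over all genes and 51% positive, and without Cre library 1 it was 0.48 with 8 of 9 positive. Notch3 stood at 140.4 and 145 CPM in TKO smooth muscle cells and at 68.8 and 58.1 CPM in Cre smooth muscle cells, with T cells between 5.99 and 11 CPM. The groups did not overlap, and the log2 difference was 1.06 ± 0.26 (SE, edgeR adjusted p = 0.807). Hes1, a Notch target, stood at 149 and 165 CPM in TKO and at 82.2 and 102 CPM in Cre, and Jag1, a Notch ligand, at 81.0 and 95.5 CPM in TKO and at 56.3 and 38.7 CPM in Cre.

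In the vasoactive list, the median was 0.04 and 14 of 20 were positive. Without Cre library 1 the median was 0.30 and 14 of 18 were positive. Of the 20 genes, 4 had both TKO libraries above both Cre libraries, near the 20.6% of all genes. Ednra and Rgs2 were 2 of them. Ednra, the endothelin receptor of smooth muscle, held 66.2 and 49.0 CPM in TKO and 20.2 and 19.4 CPM in Cre, with T cells between 3.03 and 14.2 CPM (log2 1.47 ± 0.33, SE, edgeR adjusted p = 0.807). Rgs2, which dampens Gq signalling by vasoconstrictors, held 104 and 72.3 CPM in TKO and 30.0 and 46.0 CPM in Cre, but T cells held 202 to 233 CPM (1.26 ± 0.33, edgeR adjusted p = 0.926). Npr1, the receptor for atrial natriuretic peptide, went the other way, with 40.5 and 49.0 CPM in TKO and 69.1 and 77.4 CPM in Cre (-0.79 ± 0.29).

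The matrix lists had members on both sides. The interstitial list had 12 of 32 genes at an unadjusted p under 0.05, 10 higher and 2 lower in TKO. Over all genes these shares were 3.84%, 2.5% and 1.34%. The median of the list was 0.27, and 0 were called. Without members that carried at least 3 fibroblast genes the median was -0.0080 and 15 of 30 were positive. Dcn was among the higher, at 2028 and 1177 CPM in TKO and 423 and 641 CPM in Cre, but T cells held 1818 and 1219 CPM in TKO and 618 and 695 CPM in Cre. Col8a1, a short-chain collagen made by smooth muscle cells and endothelium, stood at 235 and 194 CPM in TKO and 100.4 and 87.1 CPM in Cre (log2 1.10 ± 0.26, SE, edgeR adjusted p = 0.807). Its T cell level was 90.7 and 55.6 CPM in TKO and 14.3 and 12.7 CPM in Cre, and its difference was 0.58 without members that carried at least 3 fibroblast genes. Timp1, an inhibitor of matrix proteases, stood at 27 and 41.3 CPM in TKO and 74.3 and 159.7 CPM in Cre (-1.82 ± 0.45, edgeR adjusted p = 0.808). Among elastic fibre genes, Mfap4 held 131 and 173 CPM in TKO and 346 and 191 CPM in Cre, and Emilin1 41.9 and 33.6 CPM in TKO and 58.8 and 77.4 CPM in Cre.

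No member of the further lists was called either. The 25 immediate early genes summed to 9694 and 10666 CPM in TKO smooth muscle cells and 5181 and 8095 CPM in Cre smooth muscle cells, without overlap. In T cells the sum was 10306 and 11246 CPM in TKO and 9738 and 8668 CPM in Cre, also without overlap. For these genes the median was 0.67 (0.32 without Cre library 1), and 23 of 24 were positive. Of them, 6 had an unadjusted p under 0.05, against 3.84% of all genes, and 0 were called. Fos stood at 1545 and 1773 CPM in TKO and 609 and 1014 CPM in Cre. For oxidative phosphorylation genes the median was -0.17, and 4 of 39 were positive. Without TKO library 1 it was -0.030 (19 of 39 positive), and without TKO library 2 it was -0.46 (1 of 40). Their sums overlapped, at 6380 and 8234 CPM in TKO and 7730 and 8112 CPM in Cre smooth muscle cells. The TGF-beta list had a median of 0.23 (17 of 21 positive), the interleukin 9 and cytokine receptor list 0.20 (11 of 15) and the inflammatory list 0.50 (14 of 17). Without Cre library 1 the inflammatory list turned to -0.099 (6 of 18), the interferon list to -0.29 (4 of 17; with it 0.48, 12 of 15) and the list of modulated smooth muscle to -0.24 (5 of 14; with it 0.39, 8 of 15). The calcium and basement membrane lists turned the other way, to 0.20 (14 of 18) and 0.17 (11 of 20), where with it they stood at -0.11 and -0.17. Sost was nearly level between the genotypes (0.01 ± 0.34), and Thbs1 stood at 740.0 and 692 CPM in TKO and 398 and 401.6 CPM in Cre (0.77 ± 0.30).

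**Figure D4:**
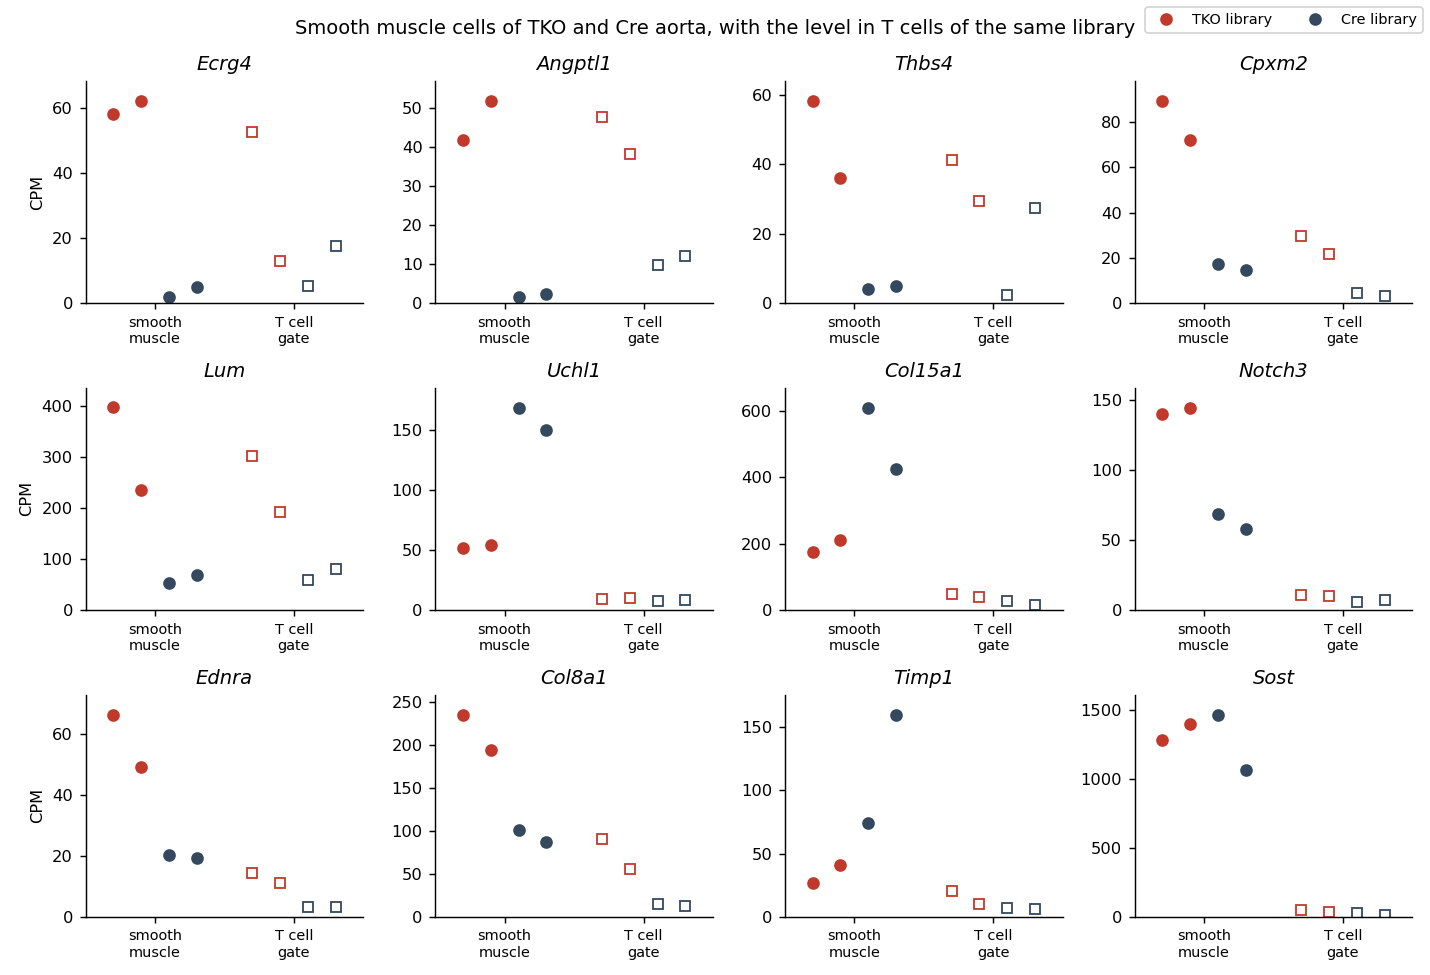
Levels of 12 genes in smooth muscle cells (filled circles) and in T cells of the same library (open squares), in CPM on linear axes, with the 2 TKO libraries left of the 2 Cre libraries. Notch3, Ednra, Cpxm2, Uchl1 and Col15a1 lie above the T cell level in every library, and Ecrg4, Angptl1 and Lum reach T cell levels like those of smooth muscle cells in TKO library 1; none passed the test.

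The third comparison asked whether the TKO and Cre libraries differed in another way in smooth muscle cells than in fibroblasts. The interaction term was the log2 difference between TKO and Cre in smooth muscle cells minus that in fibroblasts. It was fitted with edgeR over the sums of smooth muscle cells, fibroblasts and the pericyte gate together, with the library as a block. It passed for 132 of 9800 genes (1.35%), 74 (0.755%) above 0 and 58 (0.592%) below. This count rested on single libraries, from 8 without TKO library 1 to 721 without Cre library 2, and DESeq2 called 18. The same term against the pericyte gate passed for 0 of 9800 genes (0%), with 525 (5.36%) at an unadjusted p under 0.05 and 0 by DESeq2.

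Tnc and Kcnma1 had the smallest p of the listed genes, and both were level in smooth muscle cells while their fibroblast libraries did not overlap. Tnc, the matrix protein tenascin C, stood at 158 and 165 CPM in TKO smooth muscle cells and 178 and 138 CPM in Cre smooth muscle cells. In fibroblasts it stood at 76.5 and 96.1 CPM in TKO and at 7.79 and 10.7 CPM in Cre. The interaction was -3.44 ± 0.33 (log2, SE, edgeR adjusted p = 9.73e-07), and DESeq2 called it too. Kcnma1, the pore of the BK channel, had the same form, with 86.4 and 62.0 CPM in TKO and 93.4 and 60.5 CPM in Cre smooth muscle cells, and 61.9 and 43.2 CPM in TKO and 3.74 and 8.01 CPM in Cre fibroblasts (-3.79 ± 0.46, edgeR adjusted p = 2.1e-05; DESeq2 adjusted p = 0.129). Of the 22 listed genes called, these 2 were the only ones still called with each of the 4 libraries left out in turn.

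Of the contractile list outside the rule, 5 of 31 passed, all below 0, and Actn1 was one of them (-1.59, edgeR adjusted p = 0.0158). Its fibroblast values, given above, were close to its T cell values of 183 and 148 CPM in TKO and 128 and 113 CPM in Cre. Postn, a matricellular protein, stood at 1169 and 1280.3 CPM in TKO and 2498 and 1664 CPM in Cre smooth muscle cells, and at 581 and 736 CPM in TKO and 243 and 505 CPM in Cre fibroblasts (-1.66, edgeR adjusted p = 0.0263). Mfap4 (-1.96, edgeR adjusted p = 0.00331) and Col15a1 (-1.70, edgeR adjusted p = 0.0085) were also below 0. Nid1, nidogen of the basement membrane, was above 0 (1.49, edgeR adjusted p = 0.0293), with 181 and 132 CPM in TKO and 85.6 and 79.8 CPM in Cre smooth muscle cells, and 645 and 610.1 CPM in TKO and 1068 and 797 CPM in Cre fibroblasts. Without TKO library 1, none of these 5 passed.

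The last comparison followed smooth muscle RNA in bulk aorta, where fewer cells of a type and less RNA per cell cannot be told apart. In non-stripped aorta, libraries held 17359317 to 26998818 counts, given here as CPM after TMM scaling, and 18 of 15162 genes passed between TKO and Cre (0.119%), 9 (0.0594%) in each direction. All 8 contractile genes of the rule had a negative log2 difference, with a median of -0.85 against -0.02 over all genes, of which 52.7% were negative and 47.3% positive. Of these, 7 had an unadjusted p under 0.05, where 5.85% of all genes did on the lower side, and 0 were called. Myh11 stood at 49.3, 68.4 and 70.4 CPM (62.7 ± 11.7, SD, n = 3) in TKO aorta and at 133, 98.0 and 119 CPM (117 ± 17.7, SD, n = 3) in Cre aorta (log2 -0.90 ± 0.16, SE, edgeR adjusted p = 0.0729). Acta2 stood at 50.7, 94.4 and 80.0 CPM in TKO and at 277, 137 and 173 CPM in Cre (-1.38 ± 0.30, edgeR adjusted p = 0.0803). Tagln (-0.99 ± 0.25, edgeR adjusted p = 0.102) and Cnn1 (-1.55 ± 0.40, edgeR adjusted p = 0.0981) ran alike, and for none of the 4 did the TKO and Cre libraries overlap. These 4 were called by DESeq2, with adjusted p of 6.28e-05 for Myh11, 0.0177 for Acta2, 0.00314 for Tagln and 0.000831 for Cnn1, and by edgeR without a filter on low counts, so their call depended on the test and the filter.

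Elastin went with them. Eln stood at 62.6, 82.6 and 77.6 CPM in TKO and at 169.6, 94.8 and 144 CPM in Cre (log2 -0.87 ± 0.21, SE, edgeR adjusted p = 0.0877). Sost stood at 0.954, 5.09 and 0.523 CPM in TKO and at 13.1, 5.80 and 6.81 CPM in Cre (-1.96 ± 0.69, edgeR adjusted p = 0.194). Thbs4 ran the other way, at 12.9, 21 and 35.2 CPM in TKO and 6.13, 7.66 and 8.50 CPM in Cre (1.63 ± 0.33, edgeR adjusted p = 0.077), which is the direction it had in the cells, and DESeq2 called it (adjusted p = 2.09e-05). Klf10 was uneven within TKO, at 41.3, 35.4 and 0 CPM in TKO and 40.7, 50.1 and 65.7 CPM in Cre (-1.02 ± 0.97, edgeR adjusted p = 0.595). In stripped aorta Klf10 stood at 37.3 and 20.6 CPM in TKO and 44.4, 62.8, 29.7 and 43.7 CPM in Cre (-0.64 ± 0.33, edgeR adjusted p = 0.436). Of the SMC-high list of 81 genes, 77 were tested in non-stripped aorta, 37 positive and 40 negative, with a median of -0.04.

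Other tissue moved with these values. A sum of 7 skeletal muscle markers stood at 4068, 3486 and 13917 CPM in TKO non-stripped aorta and at 326, 1138 and 601 CPM in Cre non-stripped aorta, highest in TKO library 3. Of the contractile genes outside the rule 19 of 32 were positive, and their median was 0.28, or 0.03 without TKO library 3. The 4 SMC-high genes with the smallest p included Myom1, Pdlim3 and Tpm1, which striated muscle also expresses. Tpm1 held 458, 452 and 1395 CPM in TKO and 159, 217 and 167 CPM in Cre (log2 2.08, edgeR adjusted p = 0.0779, DESeq2 adjusted p = 0.0182). Cardiac muscle markers (5 genes) summed to 197, 177 and 959 CPM in TKO and 9.93, 75.7 and 58.3 CPM in Cre. Endothelial markers were lower in TKO without overlap, at 705, 742 and 628 CPM in TKO and 839.7, 955 and 955 CPM in Cre. Schwann cell markers (112, 110.0 and 91.4 CPM in TKO, and 159, 129 and 131 CPM in Cre) and mesothelial markers (47.3, 48.6 and 50.03 CPM in TKO, and 68.3, 51.9 and 69.9 CPM in Cre) were lower without overlap too. The part of these tissues in the smooth muscle values was not tested. The 4 smooth muscle markers summed to 122, 200.3 and 188 CPM in TKO and 505, 283 and 358 CPM in Cre.

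In stripped aorta, libraries held 27029844 to 35937673 counts, and 4 of 16688 genes passed (0.024%). The 4 smooth muscle markers summed to 3499.9 and 5377 CPM in TKO and to 5724, 6740.3, 6120.5 and 6754 CPM in Cre. The 8 contractile genes of the rule were again all negative, with a median of -0.57, and so were 32 of 32 other contractile genes (median -0.47), 19 of them at an unadjusted p under 0.05, where 6.37% of all genes were on the lower side, with 0 called in either list. Of the SMC-high list, 73 of 80 tested were negative, with a median of -0.44, where 49.8% of all genes were negative. Without TKO library 1 it was 62 of 80 with a median of -0.17, and without TKO library 2 it was 78 of 80 with a median of -0.73. Myh11 stood at 549.9 and 1090.1 CPM in TKO and at 1154, 1397, 1049 and 1155 CPM in Cre (log2 -0.54 ± 0.27, SE, edgeR adjusted p = 0.433), so TKO library 1 was low and TKO library 2 lay among the Cre libraries. Tagln stood at 447 and 642 CPM in TKO and at 756, 894, 905 and 841 CPM in Cre, without overlap (-0.64 ± 0.17, edgeR adjusted p = 0.221, DESeq2 adjusted p = 0.0124). Acta2 (2286 and 3299.7 CPM in TKO, and 3450.2, 3970.3, 3761 and 4333 CPM in Cre) did not overlap either (-0.47 ± 0.19, edgeR adjusted p = 0.343).

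Among genes of smooth muscle structure, Fblim1, a filamin-binding protein of cell adhesions, had one of the smallest p-values of the SMC-high list, at 251 and 347 CPM in TKO and at 519.7, 536, 546 and 494 CPM in Cre (log2 -0.81 ± 0.15, SE, edgeR adjusted p = 0.146, DESeq2 adjusted p = 5.91e-05). Actn1 stood at 347 and 412 CPM in TKO and at 498, 592, 553 and 526 CPM in Cre (-0.51 ± 0.13, edgeR adjusted p = 0.211, DESeq2 adjusted p = 0.0106), without overlap. Eln stood at 1332 and 2503 CPM in TKO and at 3399.9, 2659, 5780.0 and 6473 CPM in Cre (-1.26 ± 0.43, edgeR adjusted p = 0.285). Adipocyte markers summed to 1944 and 1526 CPM in TKO and 425, 684, 675 and 854 CPM in Cre, without overlap. Schwann cell markers were also higher without overlap, at 222 and 395 CPM in TKO and 122, 96.6, 88.7 and 195 CPM in Cre. Mesothelial markers were lower without overlap, at 21.6 and 24.9 CPM in TKO and 109, 97.4, 59.7 and 157 CPM in Cre. Cardiac muscle markers (6 genes) overlapped, at 128 and 40.9 CPM in TKO and 60.8, 60.7, 3348 and 303 CPM in Cre. The part of these cells and tissues in the smooth muscle values was not tested. Without Cre library 3, 73 of 80 SMC-high genes were negative, with a median of -0.40. Notch3 and Ednra stood higher in the TKO smooth muscle cells. In bulk Notch3 had the opposite sign and Ednra the same sign: Notch3 differed by -0.34 in non-stripped and -0.44 in stripped aorta, and Ednra by 0.03 and 0.44 (log2, none called). Uchl1 and Col15a1 stood lower in the TKO smooth muscle cells. In bulk Uchl1 had the opposite sign (0.35 and 0.17) and Col15a1 the same sign (-0.21 and -0.29), and neither was called. In non-stripped aorta Uchl1 stood at 88.4, 79.6 and 92.6 CPM in TKO and 77.4, 62.0 and 64.9 CPM in Cre, without overlap (edgeR adjusted p = 0.163).

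**Figure D5:**
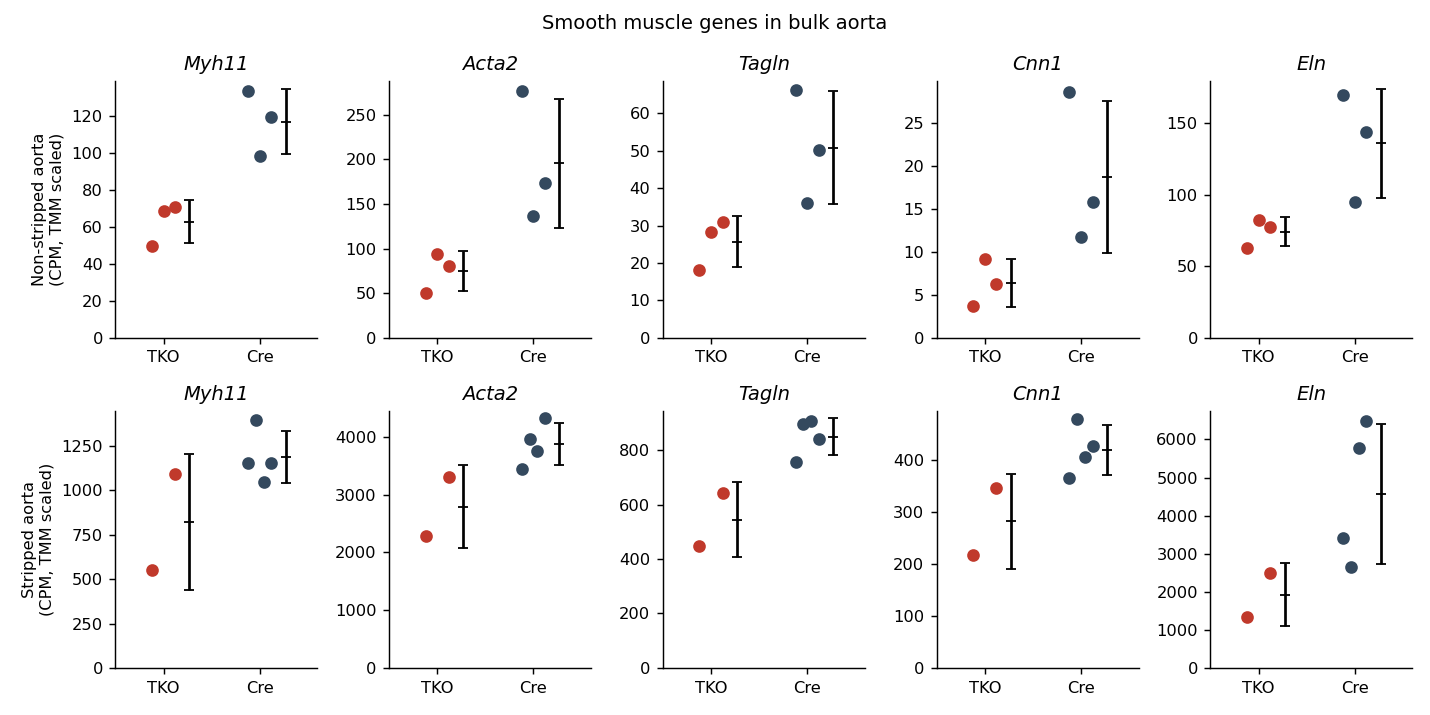
Levels of Myh11, Acta2, Tagln, Cnn1 and Eln in bulk non-stripped aorta (top, 3 TKO left of 3 Cre libraries) and stripped aorta (bottom, 2 TKO left of 4 Cre libraries), in CPM on linear axes, with points per library and bars for the mean ± SD. The TKO means lie below the Cre means in all 10 panels, and none of the differences passed an edgeR adjusted p of 0.05.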

How the data were processed

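For each barcode, the single-cell matrices give UMI counts by gene, as deposited by the authors and made with Cell Ranger 6.0.0 per the file headers. The bulk table holds gene counts as deposited by the authors; the submitters' processing notes name Trimmomatic 0.36, STAR 2.5.2b, Subread 1.5.2 with featureCounts and the build GRCm38. The annotation and the strand setting are not given in the sources used here. A table row without a gene name (at most 0.0025% of a library) and 1 column of per-sample values with no label were left out. The titles of the stripped libraries carry the word nonstripped; the other label fields say stripped and were followed.

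UMIs were summed per library and class and tested with edgeR 4.0.16 (quasi-likelihood, TMM scaling, filterByExpr with a minimum count of 10, R 4.3.3) at a Benjamini-Hochberg adjusted p of 0.05 over all genes tested. TKO was compared with Cre without a replicate block, and classes with the library as a block; DESeq2 1.42.0 was an alternative. CPM of cells is UMIs per 1000000 of the class total, and CPM of bulk is TMM-scaled. The steps were tested on simulated data. Doublets were not removed for the main values. Scrublet in scanpy 1.11.5 marked 0 kept cells in each library, so its call could not separate doublets among the members. The fits of smooth muscle cells against the pericyte gate leave out the 14 rule genes, and those against fibroblasts also the 6 fibroblast gate genes.

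Named genes were Klf10 and Il9r, up to 12 genes per direction past the threshold with libraries that do not overlap and at least 20 CPM (or, where fewer than 5 passed, the 5 with the smallest p), up to 4 per list with the smallest p, the 15 largest by the smaller of the 2 class differences at 50 CPM or more, 8 lower than the pericyte gate, and the 15 most variable genes. SMC-high genes are those at least 4-fold higher than both classes at 50 CPM or more. Myh11, Acta2, Tagln, Cnn1, Eln, Sost, Notch3 and Ednra in bulk, and the cell splits, were chosen after their values were seen. The members and the gene lists were chosen with earlier results of these data known.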

Additional observations from a re-analysis of the deposited data

Results flagged for a closer look

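For 22 genes of the lists, the difference between TKO and Cre libraries was not the same in smooth muscle cells and in fibroblasts, by an interaction term that passed an edgeR adjusted p of 0.05. Each value here is the log2 difference in smooth muscle cells minus that in fibroblasts. Contractile genes were below 0, namely Actg2 (-2.54), Nexn (-1.69), Pdlim3 (-1.64), Actn1 (-1.59) and Synpo2 (-1.29), and so were the BK channel genes Kcnma1 (-3.79) and Kcnmb1 (-2.71). Among matrix and secreted proteins, Tnc (-3.44), Mfap4 (-1.96), Igfbp2 (-1.78), Col15a1 (-1.70), Postn (-1.66), Bgn (-1.32) and Mgp (-1.21) were below 0. Above 0 were the basement membrane genes Lamb1 (2.54), Nid1 (1.49) and Sparcl1 (1.29), the collagen gene Col14a1 (1.49), the protease gene Mmp3 (1.74), the chemokine gene Ccl11 (1.91), the cytokine inhibitor gene Socs3 (1.75) and the transcription factor gene Myc (2.00). In smooth muscle cells, Lamb1 stood at 21.6 and 20.7 CPM in TKO and 6.82 and 12.1 CPM in Cre, and in fibroblasts at 85.2 and 92.2 CPM in TKO and 209.7 and 137 CPM in Cre. Bgn, a small proteoglycan, stood at 2721 and 2137 CPM in TKO and 4927 and 2847 CPM in Cre smooth muscle cells, and at 2242 and 1769 CPM in TKO and 1749 and 939 CPM in Cre fibroblasts. Without TKO library 1, 2 of the 22 were called, Tnc at -3.52 and Kcnma1 at -3.65.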

How the results depend on the processing

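Inside the smooth muscle cells, 0 genes passed between TKO and Cre; DESeq2 called 4, cells with at least 2000 UMIs gave 2, cells thinned to 1000 UMIs gave 1, no filter on low counts gave 68, and leaving out 1 library gave 0 to 1. The fit with the replicate number as a block called 47 (37 higher and 10 lower). The labels give no pairing beyond the number. Same-numbered libraries had a correlation of 0.193 in their deviations. They were also alike in kept cells, with 15365 (TKO) and 14489 (Cre) for number 1 and 7425 (TKO) and 6533 (Cre) for number 2. Median UMIs of smooth muscle cells were not alike for number 1, at 1560 (TKO) and 3539 (Cre). Whether the number marks a shared batch was not tested. Against the pericyte gate, leaving out 1 library gave 676 to 1285 calls, and leaving out cells with 3 or more fibroblast genes gave 208 (from the gate) or 203 (from both classes); Sfrp4 then turned to 2.08 and Rgs5 to -0.80 (gate) or -0.71 (both). The term against fibroblasts gave 18 calls with DESeq2, 227 without a filter and 8 to 721 with 1 library left out. That against the pericyte gate gave 28 without a filter and 1 to 152 with 1 library left out. Non-stripped aorta gave 801 calls with DESeq2, 766 without a filter and 0 to 486 with 1 library left out, and stripped aorta gave 536, 64 and 0 to 30. The difference in share was -5.15 points among cells without Ptprc, and -4.86 to -0.658 points with 1 library left out.

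Between TKO and Cre, none of the genes that turned direction had passed. With 1 library left out, Klf10 ranged over -0.056 to 1.08, Myh11 over -0.52 to 0.14, Acta2 over -0.88 to 0.070, Cnn1 over -0.90 to 0.023, Lmod1 over -0.65 to 0.039, Mylk over -0.52 to 0.48, Sost over -0.22 to 0.27 and Rgs5 over -0.034 to 1.05; the sign turned without Cre library 1 for the first 6, without library 2 of either genotype for Sost, without TKO library 2 also for Mylk, and without Cre library 2 for Rgs5. Mylk stood at 0.032 without cells with 3 or more fibroblast genes. Sost stood at -0.012 with DESeq2, -0.17 with at least 2000 UMIs, -0.23 with at most 10% mitochondrial UMIs and -0.026 without a filter. The cause was not tested for any of these. The planned removal of called doublets could give no value, since 0 members were marked; leaving out the 113 members in the top 5% of doublet scores, and the settings on cells with fibroblast or pericyte genes against the pericyte gate, were chosen after seeing the data. With 2 libraries a group, 1 deep Cre library and few pericyte gate cells, modest differences were not detectable.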
